A study of Mus musculus with 3 samples.

Results

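Cytosolic ribosomal protein genes encode the proteins that, with ribosomal RNA, build the large and the small subunit of the ribosome. They were taken by symbol, as Rpl or Rps with a number and at most one closing letter a, x or l, plus Rplp0, Rplp1, Rplp2 and Rpsa, which gave 81 of the 27998 genes in the count matrices. The large subunit accounted for 50 of them and the small subunit for 31. They lay on 19 chromosomes, 4 of them on the X chromosome, and 80 were annotated as protein coding. A ribosome needs most of its proteins in equal numbers, and cells regulate these genes largely as one family. Their messages are known for a run of pyrimidines at the very start, the TOP motif, through which mTOR signalling and the RNA-binding protein Larp1 control their translation. Growing and dividing cells, such as cortical progenitors, are known for a high demand for ribosomes.

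The data were single-cell RNA counts from the dorsal cortex of pups on postnatal day 2 (mouse), with 1 library for each of 3 genotypes. In the Emx1-Cre mutant, Map2k1 and Map2k2, the genes of the kinases that activate ERK, were removed by Cre expressed from the Emx1 gene, which is active in the dorsal telencephalic lineage. In the hGFAP-Cre mutant the same 2 genes were removed by Cre under a human GFAP promoter, which is active in radial glia and their descendants. The control is described in the protocol as carrying floxed Map2k1 and Map2k2, and its genotype label reads WT. All pups had a fluorescent dye (FlashTag, CellTrace Yellow) injected into the lateral ventricle at embryonic day 18, and cells were sorted for tdTomato. Which allele supplies tdTomato is not stated, and neither the number nor the sex of the pups is given. The series title asks how NOTCH, ERK and SHH signalling set the fates of astrocytes, of oligodendrocytes and of interneurons bound for the olfactory bulb.

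The matrices held 13214 barcodes for the Emx1-Cre mutant, 13139 for the hGFAP-Cre mutant and 11886 for the control, with totals between 84016524 and 89917586 UMIs (unique molecular identifiers, each standing for 1 captured RNA molecule). Between 43 and 54 barcode sequences were shared by each pair of libraries. After filters on detected genes, mitochondrial share and doublets, 12225, 12060 and 9490 cells remained, with median depths of 4998, 5318 and 6420 UMIs. The smallest barcode held 2644 UMIs in the Emx1-Cre mutant, 3065 in the hGFAP-Cre mutant and 500 in the control, and 1905 control barcodes (16.0%) had under 1000 detected genes. Map2k1 stood at 13.9, 16.3 and 16.6 CPM (a gene's UMI count scaled to one common total for every library or class) and Map2k2 at 217, 214 and 196 CPM, and 3′ tags outside a deleted exon do not check a deletion. Xist stood at 0.122, 0.950 and 1461 CPM and the Y-linked Ddx3y at 37.3, 45.7 and 0 CPM, so genotype and sex cannot be told apart. With 1 library per genotype no test was possible between genotypes. All intervals are exact 95% intervals that cover counting error only, and a member is called higher or lower where its CPM differed by at least 1.5-fold, with 5 CPM added to both values. A member was measured in a comparison where it reached 10 CPM on either side.

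The start sites of 5 members that the results below turn on are shown first, because a pyrimidine start is the sequence feature that the family is known for. Each run reads from 60 bases before the annotated start to the first 20 transcribed bases, from RefSeq on GRCm38.p6. Capitals mark the pyrimidines that run on from the first transcribed base, and any CCGGAAG (the core bound by ETS factors) or GGGCGG (an Sp1 box) on either strand.
Rpl38, chr11:114668520-114668599, plus strand: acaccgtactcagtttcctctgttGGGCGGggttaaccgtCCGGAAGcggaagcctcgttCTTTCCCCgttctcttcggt
Rps27, chr3:90213629-90213708, minus strand: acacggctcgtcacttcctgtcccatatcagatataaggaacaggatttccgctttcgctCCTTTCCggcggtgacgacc
Rps6, chr4:86857348-86857427, minus strand: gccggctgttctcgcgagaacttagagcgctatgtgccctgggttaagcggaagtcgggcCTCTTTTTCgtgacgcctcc
Rplp0, chr5:115559407-115559486, plus strand: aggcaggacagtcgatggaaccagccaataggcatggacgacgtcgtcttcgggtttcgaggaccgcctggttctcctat
Rps27l, chr9:66946026-66946105, plus strand: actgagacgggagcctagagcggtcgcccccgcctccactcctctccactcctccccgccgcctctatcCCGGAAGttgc
Rpl38, Rps27 and Rps6 carried such a run at the first base, and Rplp0 and Rps27l did not at their annotated starts. These 5 do not stand for the family. Rps28, at 1274 and 1514 CPM in the mutants against 3537 CPM in the control over all kept cells, had a run of only 3 bases. Rps15a (3394 and 3185 against 2862 CPM) and Rps10 (2639 and 2618 against 2117 CPM) had runs of 8 and 10 bases. A link between the run and the differences between genotypes was not tested.

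RefSeq gave a promoter (250 bases before to 50 bases after the start) for 60 of the 81 members. A C followed by at least 4 pyrimidines stood at the first base in 12 of the 60 (20%), against 2.20% of 17939 other genes. Such a run began within 5 bases of the annotated start in 45.0% of members, against 18.8% of other genes. CCGGAAG, searched on both strands, was held by 40% of members against 11.4% of other genes, GGGCGG by 58.3% against 45.4%, and TATAAA by 8.33% against 12.8%. An extended YY1 motif was in none of the 60 member windows and in 0.948% of the others. These are letter matches in fixed windows, given as a description.

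Apart from 4 genes, the levels of single members ran from 311 to 3458 CPM as means over the 3 libraries. Over all kept cells, Rpl13, Rpl41, Rps29, Rps15a and Rps27a were the highest, with means over the 3 libraries of 3458, 3417, 3179, 3147 and 3085 CPM. Among the broadly expressed members Rpl23a was the lowest, at 302, 255 and 375 CPM in the Emx1-Cre mutant, the hGFAP-Cre mutant and the control. CPM from 3′ tags count molecules and were not divided by length. The remaining 4 symbols that match the rule were nearly silent. Rpl6l averaged 2.56 CPM, Rpl39l 0.669 CPM and Rpl3l 0.0700 CPM, and Rpl10l had 1 count in all, in the Emx1-Cre mutant. Rpl3l, Rpl10l and Rpl39l are paralogs best known from muscle or testis, and their main partners Rpl3, Rpl10 and Rpl39 stood at 1763, 949 and 1902 CPM in the Emx1-Cre mutant. The other 77 members were measured in every comparison below.

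Many members have near copies in the genome, which bears on how reads could be counted. Of 80 members whose transcript ends could be tested, 24 shared at least 50% of the 75-base stretches in their last 500 bases with another annotated gene, and 10 shared none. Rps6 (90.1% shared), Rpl10 (89.9%), Rps2 (73.9%) and Rps12 (66.7%) are uncertain for that reason, while Rps27l (8.07%), Rps21 (6.56%) and Rpl27a (0%) share little or nothing. A pseudogene named after the member was annotated for 59 of the 81.

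Ribosomal protein messages made up between 7.62% and 21.9% of a cell class's UMIs. Cells were grouped into classes by 32 clusters made without ribosomal protein genes, and each class is called by the marker list its clusters raised, as astroglia-like and so on. Clusters 4, 28 and 29 were left unnamed by the marker rules and are in no class. They held 73 cells of the Emx1-Cre mutant, 1239 of the hGFAP-Cre mutant and 980 of the control, at shares of 13.7%, 13.9% and 14.0%. Over all kept cells the share was 13.3% in the Emx1-Cre mutant, 13.7% in the hGFAP-Cre mutant and 14.99% in the control. Microglia-like cells, the resident macrophages of the brain, held the highest share in both mutants, at 21.9% and 21.3%, and the second highest in the control, at 21.3%. Their clusters differed between libraries. Cluster 25 held 152 cells of the Emx1-Cre mutant, 79 of the hGFAP-Cre mutant and 0 of the control, at 24.2% and 20.75% in the mutants. In cluster 19 the shares were 19.3%, 21.6% and 21.3%. Multipotent progenitor-like cells, with Egfr and Olig2 among their markers, held 19.0% in the hGFAP-Cre mutant and 21.7% in the control, while the Emx1-Cre mutant had only 5 such cells. Ependymal lineage-like cells, which build motile cilia, came last in all 3 libraries, at 7.62%, 8.76% and 9.99%, the control value resting on 33 cells.

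The remaining classes lay between these. Oligodendrocyte precursor-like cells held 16.5%, 18.3% and 18.7% in the Emx1-Cre mutant, the hGFAP-Cre mutant and the control. Endothelial-like cells held 18.05%, 16.4% and 18.4%, and mural-like cells 19.7%, 17.4% and 14.0%, the last from 36 control cells. Neuronal classes sat lower and close together: interneuron lineage-like cells at 14.5%, 15.3% and 14.6%, projection neuron-like cells at 12.5%, 13.9% and 14.0%, and Cajal-Retzius-like cells at 12.2%, 15.4% and 13.3%. The classes that changed place most between libraries were mural-like cells, at ranks 2, 4 and 9, and astroglia-like cells, which ranked 4th of 10 classes in the Emx1-Cre mutant at 16.7%, 10th of 11 in the hGFAP-Cre mutant at 11.2%, and 7th of 11 in the control at 14.2%. Counting intervals were narrow, from 13.9% to 14.2% even for the 36 mural-like cells of the control, so counting error alone does not blur the order of most neighbouring classes. The ratio of small to large subunit UMIs was 0.802, 0.778 and 0.800 over all cells.

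**Figure D1:**
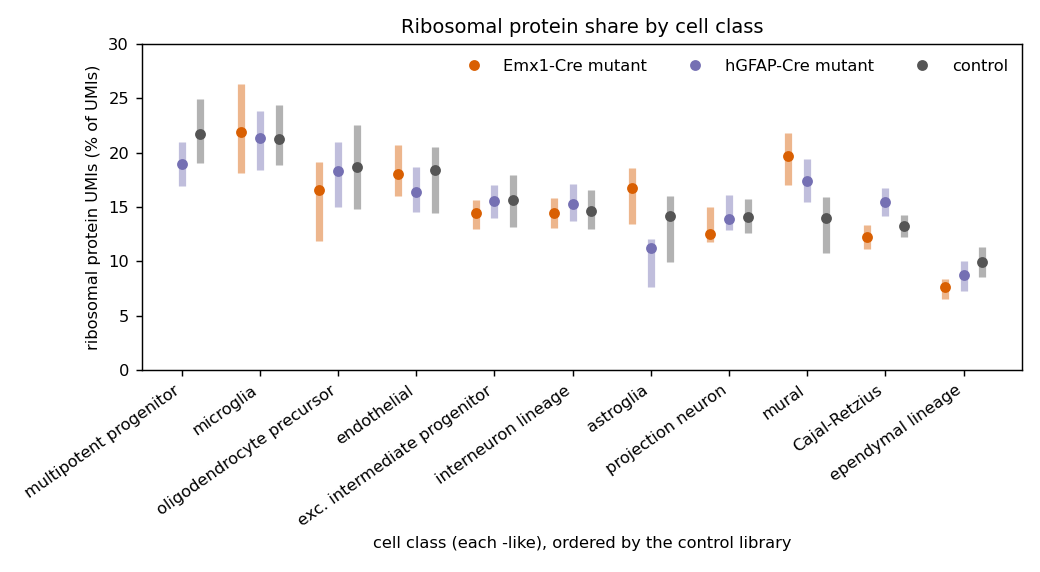
Share of UMIs in the 81 ribosomal protein genes (percent, y axis) for each named cell class of at least 30 cells (x axis, ordered by the control), with a point for the pooled share of each library and a bar for the middle 50% of single cells. Microglia-like cells, pooled over their clusters, are between 21.3% and 21.9% in the 3 libraries. Ependymal lineage-like cells are lowest, and astroglia-like cells differ between libraries by more than microglia-like cells do.

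The members did not all follow the family from class to class. Microglia-like over astroglia-like cells gave a log2 ratio of the share of 0.39 in the Emx1-Cre mutant, 0.93 in the hGFAP-Cre mutant and 0.58 in the control. In the control, Rps29 stood at 11401 CPM in microglia-like against 4839 CPM in astroglia-like cells (log2 ratio 1.24), Rps12 at 2943 against 1324 CPM (1.15), Rpl10 at 1742 against 823 CPM (1.08) and Rpl35a at 4105 against 1956 CPM (1.07). Rps27l went the other way, at 327 against 486 CPM (−0.56). In that comparison 34 of 77 members were higher and none lower, where 20.2% of all genes were higher and 46.0% lower. The median log2 ratio of all genes was −0.49, and after taking it off 71 of the 77 members were higher. Here and below, the all-gene percentages are from before that step. They were not recomputed after it, so counts relative to the median have no matching all-gene share beside them.

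Multipotent progenitor-like cells exceeded astroglia-like cells in every measured member. The log2 ratio of the share was 0.76 in the hGFAP-Cre mutant, with 63 of 77 members higher against 13.2% of all genes, and 0.61 in the control, with 46 of 77 higher against 8.49%. Rps26, a small subunit protein, had the largest ratio in the hGFAP-Cre mutant, at 2549 CPM in multipotent progenitor-like against 1109 CPM in astroglia-like cells (1.20), and the second largest in the control, at 3446 against 1902 CPM (0.86). Rps6, the S6 kinase substrate, led in the control at 958 against 522 CPM (0.87). The smallest ratio in the hGFAP-Cre mutant was that of Rps27l, at 1087 against 1003 CPM (0.12), and the smallest in the control was that of Rps10, at 2914 against 2272 CPM (0.36).

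Ependymal lineage-like cells were below astroglia-like cells in most members. In the Emx1-Cre mutant the log2 ratio of the share was −1.13, and 67 of 77 members were lower against 23.8% of all genes. Rpsa, the laminin receptor homologue of the small subunit, stood at 670 CPM in ependymal lineage-like against 3755 CPM in astroglia-like cells (−2.48), Rpl27a at 909 against 4695 CPM (−2.36), Rps2 at 1188 against 5273 CPM (−2.15) and Rps26 at 485 against 1907 CPM (−1.964). Rps27l and Rps15 were the only 2 of the 77 above 0, Rps27l at 1590 against 824 CPM (0.94) and Rps15 at 764 against 708 CPM (0.11). The ratio of the share was −0.35 in the hGFAP-Cre mutant and −0.51 in the control, with 13 and 35 of 77 members lower against 21% and 24.2% of all genes.

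Excitatory intermediate progenitor-like cells, the Eomes-expressing step before projection neurons, held 14.4% in the Emx1-Cre mutant, 15.5% in the hGFAP-Cre mutant and 15.7% in the control. Over projection neuron-like cells this was a log2 ratio of 0.20, 0.16 and 0.16. Only 1 of 77 members passed 1.5-fold in each library, Rps27l, where 15%, 16.9% and 17.9% of all genes were higher. In the control Rps27l stood at 473 CPM in intermediate progenitor-like against 224 CPM in projection neuron-like cells (1.07), Rps24 at 3592 against 2449 CPM (0.55), Rps12 at 1305 against 962 CPM (0.44) and Rps6 at 668 against 492 CPM (0.44). Rpl38 was at the other end, at 2940 against 3586 CPM (−0.29). The control held 230 intermediate progenitor-like cells at a median of 8592 UMIs, against 3830 projection neuron-like cells at 5645 UMIs. The unnamed cluster 4, with raised projection neuron markers but top genes of intermediate progenitors, is in neither class. It held 71, 1153 and 980 cells of the Emx1-Cre mutant, the hGFAP-Cre mutant and the control, at shares of 13.5%, 14.1% and 14.0%.

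Cycling state was called from 20 G2/M genes, none of them a member, and a cell with at least 2 of them detected was counted as G2/M. In astroglia-like cells the G2/M cells held the larger share in all 3 libraries: 17.2% against 15.4% in other cells of the Emx1-Cre mutant, 15.1% against 9.85% in the hGFAP-Cre mutant, and 16.2% against 12.4% in the control. The log2 ratios were 0.15, 0.62 and 0.39. Every one of the 77 members was above 0 in the Emx1-Cre mutant and in the control, and 76 in the hGFAP-Cre mutant, Rps27l being the exception. Past 1.5-fold there were 0, 44 and 9 higher members, against 6.01%, 7.54% and 9.93% of all genes, and no lower member. The median of all genes was −0.095, −0.095 and −0.096, and taking it off gave 0, 62 and 21 higher members.

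The leading members were partly different in the 3 libraries. In the control Rpsa stood at 3443 CPM in G2/M against 2008 CPM in other astroglia-like cells (0.78), Rps6 at 661 against 401 CPM (0.72), Rps2 at 2900 against 1764 CPM (0.72) and Rpl12 at 710 against 455 CPM (0.64). Among the smallest differences were those of Rps10 at 2392 against 2168 CPM (0.14), Rps27 at 2604 against 2310 CPM (0.17) and Rps14 at 1455 against 1244 CPM (0.23). In the hGFAP-Cre mutant Rpl12, a stalk-base protein, led at 763 against 367 CPM (1.05), before the stalk protein Rplp2 at 1660 against 866 CPM (0.94) and Rpl23a at 345 against 181 CPM (0.91). The largest ratio in the Emx1-Cre mutant was that of Rpl23a, at 478 against 371 CPM (0.36), followed by Rpl14 at 1640 against 1301 CPM (0.33). The members spread by an SD of 0.08, 0.17 and 0.13 around their mean log2 ratio, a narrow spread beside that between genotypes below.

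G2/M cells were also deeper, and the share was higher in deeper cells of both states, except that G2/M cells of the Emx1-Cre mutant held 15.2% under 4000 UMIs and 14.8% at 4000 to 6000 UMIs. Median depths of G2/M against other astroglia-like cells were 8599 against 6202 UMIs in the Emx1-Cre mutant, 9098 against 5638 in the hGFAP-Cre mutant and 13605 against 7424 in the control. Among other cells the share ran from 14.2% under 4000 UMIs to 17.0% at 8000 to 12000 UMIs in the Emx1-Cre mutant, from 8.97% under 4000 UMIs to 11.3% at 12000 UMIs or more in the hGFAP-Cre mutant, and from 10.5% to 15.3% over the same range in the control. At 8000 to 12000 UMIs, G2/M and other cells held 16.9% and 17.0% in the Emx1-Cre mutant, 14.3% and 10.8% in the hGFAP-Cre mutant, and 15.1% and 12.8% in the control. In the band from 4000 to 8000 UMIs the control log2 ratio was 0.15, against 0.39 over all depths. The clusters within the class differed in share too. In the hGFAP-Cre mutant cluster 8, led by cell cycle genes, and cluster 10 held 19.0% each, against 9.96% in cluster 1 with 2846 cells. In the control cluster 8 held 16.6% and cluster 9 held 11.2%, and in the Emx1-Cre mutant clusters 8 and 10 held 17.4% and 16.3%. The parts that depth and cluster have in the difference between states were not tested further.

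**Figure D2:**
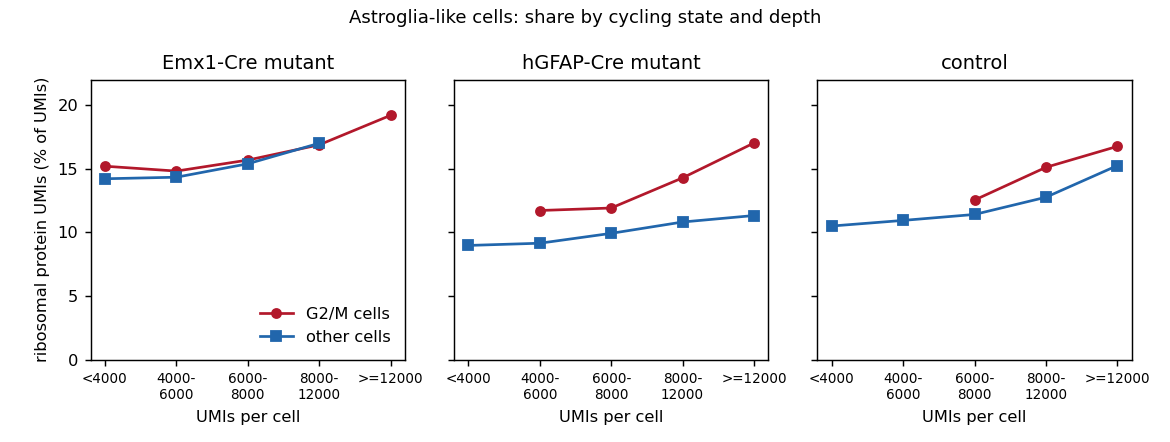
Share of UMIs in ribosomal protein genes (percent, y axis) of astroglia-like cells by UMIs per cell (x axis, 5 ranges), with G2/M cells as circles and other cells as squares, 1 panel per library and only groups of at least 30 cells. From 4000 UMIs up the share is higher in each deeper range of every panel, and at 8000 to 12000 UMIs the 2 states coincide in the Emx1-Cre mutant and stand apart in the hGFAP-Cre mutant and the control.

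Outside astroglia-like cells the G2/M cells did not hold a larger share throughout. In intermediate progenitor-like cells the log2 ratio was 0.036 in the Emx1-Cre mutant, −0.058 in the hGFAP-Cre mutant and −0.25 in the control, where G2/M cells held 15.02% against 17.9% in the other 79 cells. In multipotent progenitor-like cells it was −0.027 in the hGFAP-Cre mutant and −0.23 in the control, where G2/M cells held 19.7% against 23.2% in other cells. Microglia-like cells gave −0.13, 0.013 and 0.034, and interneuron lineage-like cells −0.21 in the hGFAP-Cre mutant and −0.072 in the control. The call itself is depth-dependent, since it also marked 60.4% of the Cajal-Retzius-like cells of the control, a postmitotic class that had a median depth of 19135 UMIs there, against 15.8% in the Emx1-Cre mutant at 6123 UMIs. It marked 82.6%, 90.4% and 100% of ependymal lineage-like cells in the Emx1-Cre mutant, the hGFAP-Cre mutant and the control as well, so the call alone does not show that a cell divides.

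Part of the genes that serve ribosome production were higher in G2/M astroglia-like cells too. In the control, 11 of 24 ribosome biogenesis genes were higher in G2/M cells and none lower (median log2 ratio 0.52), where 9.93% of all genes were higher, led by the snoRNP proteins Nop58 at 170 CPM in G2/M against 59.8 CPM in other cells (1.43) and Nop56 at 133 against 53.8 CPM (1.23). Of 16 translation factors and RNA-binding proteins with TOP messages, 4 were higher (median 0.29), led by Hnrnpa1 at 882 against 304 CPM (1.52) and Npm1 at 1438 against 830 CPM (0.79). Of 76 mitochondrial ribosomal protein genes 3 were higher (median 0.19), a smaller share than of all genes. In the hGFAP-Cre mutant the same lists gave 13 of 24 (median 0.61), 8 of 16 (0.53) and 0 of 76 (0.13), against 7.54% of all genes, and in the Emx1-Cre mutant 3 of 21 (0.33), 0 of 16 (0.11) and 0 of 76 (0.071), against 6.01%.

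Between genotypes, the share in astroglia-like cells was higher in the Emx1-Cre mutant and lower in the hGFAP-Cre mutant than in the control. It was 16.7% (95% interval 16.70 to 16.73) in 2040 cells of the Emx1-Cre mutant and 11.2% (11.19 to 11.21) in 3135 cells of the hGFAP-Cre mutant, against 14.2% (14.19 to 14.22) in 2417 control cells. The log2 ratios to the control, which both comparisons share, were 0.23 and −0.34. Median depths were 7455, 5996 and 8418 UMIs. The median log2 ratio of all measured genes was −0.30 in the Emx1-Cre mutant and −0.07 in the hGFAP-Cre mutant, so that relative to it the family stood at 0.53 and −0.27.

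The direction was shared by most but not all members. In the Emx1-Cre mutant 56 of 77 members were above 0, 19 were called higher and 5 lower, against 7.23% and 27.9% of all genes, and the split was 37 higher and 4 lower after taking off the all-gene median. In the hGFAP-Cre mutant 14 of 77 were above 0, 2 were called higher and 22 lower, against 11.9% and 14.4% of all genes, or 3 higher and 17 lower relative to the median. The large subunit gave 9 higher and 2 lower of 46 and the small subunit 10 higher and 3 lower of 31 in the Emx1-Cre mutant. In the hGFAP-Cre mutant the large subunit gave 1 higher and 13 lower and the small subunit 1 higher and 9 lower.

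Single members differed much more than the family. Rps2, near the messenger RNA entry of the small subunit, stood at 5273 CPM in the Emx1-Cre mutant and 3075 CPM in the hGFAP-Cre mutant, against 2292 CPM in the control (log2 ratios 1.20 and 0.42). Rplp0, the scaffold of the ribosomal stalk, stood at 3074 and 1864 CPM against 1478 CPM (1.05 and 0.33), and Rpl27 at 1513 and 1192 CPM against 815 CPM (0.89 and 0.55). Rpl27a stood at 4695 CPM in the Emx1-Cre mutant and 1542 CPM in the hGFAP-Cre mutant, against 2122 CPM in the control (1.14 and −0.46). At the other end, Rps28 stood at 1609 and 1111 CPM against 3094 CPM (−0.94 and −1.47) and Rps27, a zinc-finger protein of the small subunit, at 1244 and 1023 CPM against 2447 CPM (−0.97 and −1.25). Rps29, another small zinc-finger protein, stood at 2862 and 1695 CPM against 4839 CPM (−0.76 and −1.51), Rps21 at 931 CPM in the hGFAP-Cre mutant against 2245 CPM (−1.26), and Rpl38, which is known for its role in Hox mRNA translation in the mouse, at 1496 and 1262 CPM against 2782 CPM (−0.89 and −1.14). Rpl29 and Rps27l, which went their own way, are taken up below.

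The 3 libraries filled the astroglia-like class with different clusters. Of the Emx1-Cre mutant's cells 1075 were in cluster 10 (led by Has2, A2m and Serpinf1) and 800 in cluster 8 (led by cell cycle genes). Of the hGFAP-Cre mutant's cells 2846 were in cluster 1 (led by Prm1, Sfrp5 and Paqr6), and of the control's cells 1309 were in cluster 9 (led by Hopx and Chil1), 513 in cluster 8 and 493 in cluster 22 (led by Dbx2 and Lcat). A cluster that is mostly 1 library may be that library and not a kind of cell. Prm1 stood at 0.0406, 567 and 0 CPM over the 3 libraries.

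Within clusters the ratio of the share to the control took both signs. In cluster 8 it was 17.4% in the Emx1-Cre mutant and 19.0% in the hGFAP-Cre mutant against 16.6% in the control (log2 ratios 0.06 and 0.19). In cluster 10 it was 16.3% and 19.0% against 20.9% in 63 control cells (−0.36 and −0.14), and in cluster 1 it was 14.4% and 9.96% against 13.2% in 39 control cells (0.13 and −0.40). In cluster 9 the 34 cells of the hGFAP-Cre mutant held 9.48% against 11.2% in the control (−0.24). The higher share of the Emx1-Cre mutant therefore did not hold in cluster 10, which held most of its cells. The lower share of the hGFAP-Cre mutant did not hold in cluster 8, with 124 of its cells. It did hold in clusters 1, 9 and 10, with 2846, 34 and 128 of its cells.

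**Figure D3:**
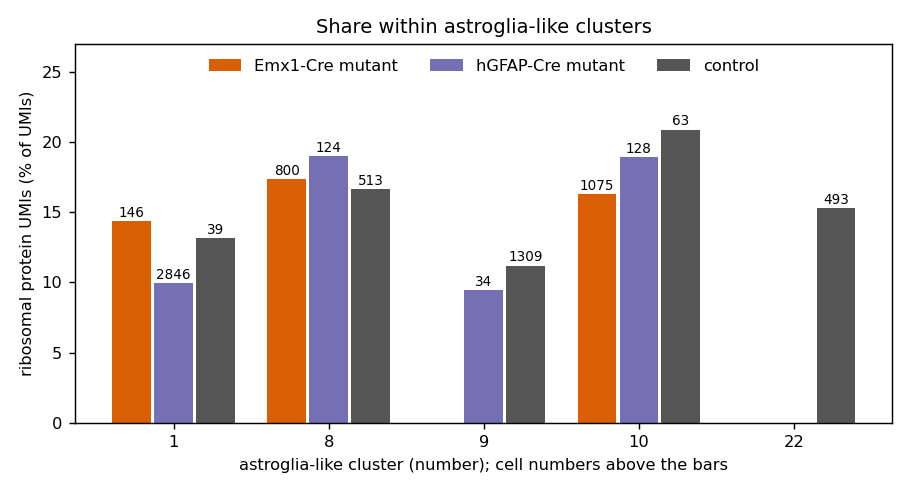
Share of UMIs in ribosomal protein genes (percent, y axis) in each astroglia-like cluster (x axis, by number) for each library with at least 30 cells there, with the cell number above each bar. Cluster 10, where most cells of the Emx1-Cre mutant lie, has its highest share in the control at 20.9%, and cluster 1, where most cells of the hGFAP-Cre mutant lie, has its lowest share in that mutant at 9.96%.

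The share of cells called G2/M also differed between the astroglia-like cells of the libraries. It was 64.5% in the Emx1-Cre mutant, 17.1% in the hGFAP-Cre mutant and 33.0% in the control. Among G2/M cells the log2 ratio of the share to the control was 0.082 in the Emx1-Cre mutant and −0.11 in the hGFAP-Cre mutant, and among other cells it was 0.31 and −0.34. Members called in G2/M cells were 8 higher and 7 lower in the Emx1-Cre mutant, against 6.99% and 25.6% of all genes, and 4 higher and 9 lower in the hGFAP-Cre mutant, against 12.1% and 15.2%. Among other cells 22 were higher and 5 lower in the Emx1-Cre mutant, against 9.12% and 27.3% of all genes, and 3 higher and 20 lower in the hGFAP-Cre mutant, against 11% and 13.4%. Summed markers of other classes also moved within the class: those of multipotent progenitors, the 8 of which include Egfr, came to 452 and 343 CPM against 1313 CPM in the control, and the 10 of oligodendrocyte precursors to 278 and 149 CPM against 672 CPM, with Bmp4 at 0 in the control. The 10 ependymal lineage markers came to 70.3 and 266 CPM against 27.3 CPM, with Tmem212, Tctex1d4 and Ccdc153 at 0 in the control. The astroglia markers themselves came to 41961 and 25498 CPM against 32444 CPM. The part of these cells in the share was not tested.

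In intermediate progenitor-like cells the family showed little net difference. The share was 14.4% in 2351 cells of the Emx1-Cre mutant and 15.5% in 3063 cells of the hGFAP-Cre mutant, against 15.7% in 230 control cells, at median depths of 3595, 5344 and 8592 UMIs. The log2 ratios were −0.12 and −0.013, and both turned positive, to 0.024 and 0.067, relative to the all-gene medians of −0.14 and −0.08. Cells called G2/M were 23.4% and 33.1% of the class against 65.7% in the control. The summed astroglia markers in the class came to 414 and 1227 CPM against 1780 CPM in the control, and the multipotent progenitor markers to 189 and 394 CPM against 606 CPM, and their part in the share was not tested. Among G2/M cells the shares were 14.7% and 15.2% against 15.02%, and among other cells 14.3% and 15.8% against 17.9%.

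Single members spread in both directions there, as in astroglia-like cells. There, 5 members were higher and 12 lower in the Emx1-Cre mutant, against 9.44% and 19% of all genes, and the split was 7 and 7 relative to the all-gene median. In the hGFAP-Cre mutant 5 were higher and 7 lower, against 7.94% and 12.5%, or 7 and 6 relative to the median. In both mutants the counts before that step were smaller shares of the members than the all-gene shares beside them. Rps28 stood at 1406 and 1724 CPM in the 2 mutants against 3522 CPM in the control (−1.32 and −1.03), Rps29 at 2322 and 2406 CPM against 5231 CPM (−1.17 and −1.12), and Rpl38 at 1404 and 1641 CPM against 2940 CPM (−1.06 and −0.84). Rps27 stood at 1196 CPM in the Emx1-Cre mutant against 2409 CPM (−1.01) and Rps21 at 1426 CPM in the hGFAP-Cre mutant against 2548 CPM (−0.84). At the high end, Rplp0 stood at 2780 and 2520 CPM against 1593 CPM (0.80 and 0.66), Rps2 at 3092 and 3773 CPM against 1958 CPM (0.66 and 0.94) and Rpl27 at 1614 and 1672 CPM against 1017 CPM (0.66 and 0.71). Rpl5, which with Rpl11 and 5S RNA can bind Mdm2, stood at 641 CPM in the Emx1-Cre mutant against 404 CPM (0.66).

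In the remaining classes the members split in both directions as well. In ependymal lineage-like cells the log2 ratio of the share was −0.39 in the Emx1-Cre mutant and −0.19 in the hGFAP-Cre mutant, with 0 higher and 26 lower members against 12.6% and 27.6% of all genes, and 2 higher and 9 lower against 12.8% and 17.5%. In oligodendrocyte precursor-like cells it was −0.18 and −0.033, with 1 higher and 16 lower (13.6% and 21.5% of all genes), and 4 higher and 8 lower (11.5% and 21.4%). Multipotent progenitor-like cells could be compared in the hGFAP-Cre mutant only, at −0.19, with 2 higher and 13 lower (7.29% and 20.3%). Most of these counts are near or under the all-gene shares. Relative to the all-gene median the splits were 2 higher and 13 lower, and 3 and 8, in ependymal lineage-like cells, 3 and 13, and 7 and 6, in oligodendrocyte precursor-like cells, and 5 and 7 in multipotent progenitor-like cells.

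Neurons and non-neural classes were mixed. Interneuron lineage-like cells gave log2 ratios of −0.017 and 0.061, with 5 higher and 10 lower members in the Emx1-Cre mutant (11.8% and 23.3% of all genes), and 6 higher and 6 lower in the hGFAP-Cre mutant (6.73% and 14.3%). Projection neuron-like cells gave −0.16 and −0.014, with 2 higher and 14 lower (6.07% and 20%), and 4 higher and 7 lower (4.75% and 12.2%). Cajal-Retzius-like cells had 2 higher and 15 lower (5.41% and 15.2%), and 12 higher and 5 lower (5.28% and 15.8%). Relative to the all-gene median the splits were 9 higher and 5 lower, and 7 and 4, in interneuron lineage-like cells, 7 and 5, and 7 and 6, in projection neuron-like cells, and 7 and 9, and 22 and 3, in Cajal-Retzius-like cells. In projection neuron-like cells the direction differed between depth ranges. Under 4000 UMIs the mutants held 14.3% and 15.7% against 9.62% in 701 control cells. Those control cells had a median of 2482 UMIs, below the smallest barcode of either mutant (2644 and 3065 UMIs). At 4000 to 6000 UMIs the mutants held 13.5% and 14.4% against 15.1%, and at 6000 to 8000 UMIs 11.5% and 14.0% against 14.5%. The part of depth was not tested. Microglia-like cells had 8 higher and 10 lower of 78 (12.3% and 26.8%), and 7 higher and 7 lower of 77 (10.5% and 16%). Endothelial-like cells gave −0.027 and −0.16, with 4 higher and 10 lower (11.4% and 22.2%), and 3 higher and 12 lower (16.1% and 15%). Mural-like cells gave 0.49 and 0.31, with 32 higher and 4 lower (15.6% and 37%), and 21 higher and 4 lower (18.8% and 31.2%), on 36 control cells. Most counts in these classes are near or under the all-gene shares. Clearly above them were the higher members of mural-like cells, and of Cajal-Retzius-like cells in the hGFAP-Cre mutant.

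A set of members kept its direction through every class. Of 77 members in the Emx1-Cre mutant, 14 were below the control in all 10 classes compared and 14 above it in all 10, and in the hGFAP-Cre mutant 17 were below and 11 above in all 11. Relative to the all-gene median of each class, 5 were below and 30 above in every class in the Emx1-Cre mutant, and 10 and 14 in the hGFAP-Cre mutant. How many of all genes kept their direction through every class was not counted, so these counts do not set the members apart from other genes. Classes of a library share its capture, amplification and sequencing, so they are not replicates of the genotype. Rps28 ran from −1.72 to −0.70 over the classes of the Emx1-Cre mutant and from −1.47 to −0.51 over those of the hGFAP-Cre mutant. Rpl38 ran from −1.31 to −0.57 and from −1.19 to −0.57, Rps29 from −1.30 to −0.62 and from −1.51 to −0.72, and Rps27 from −1.42 to −0.78 and from −1.25 to −0.16. Of these 4, only Rps27, in 1 class of the hGFAP-Cre mutant, was above 0 relative to the all-gene median.

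Members above the control in all classes of both mutants included Rplp0, which ran from 0.53 to 1.45 in the Emx1-Cre mutant and from 0.33 to 1.06 in the hGFAP-Cre mutant. Rps2 ran from 0.08 to 1.20 and from 0.32 to 0.95, Rpl27 from 0.20 to 1.23 and from 0.28 to 1.06, Rpl9 from 0.31 to 1.13 and from 0.29 to 0.81, and Rps7 from 0.20 to 1.20 and from 0.17 to 1.0. Microglia, which arise outside the neural lineages in which these Cre drivers act, showed these differences too. In microglia-like cells, whose pooled family share differed by log2 ratios of 0.044 and 0.005, Rps28 stood at 2337 and 2442 CPM against 5062 CPM in the control and Rps29 at 5933 and 5989 CPM against 11401 CPM. The pooled share hides a difference in clusters. In cluster 19, with 237 of the control's microglia-like cells, the log2 ratios of the share were −0.14 and 0.022. The members' SD was 0.42 to 0.54 in the 21 class comparisons of mutants with the control. It was 0.08 to 0.17 between the cycling states of astroglia-like cells within a library, and up to 0.52 between classes within a library (ependymal lineage-like over astroglia-like cells of the Emx1-Cre mutant). After the family mean was taken off, a member's median SD was 0.178 over classes and 0.167 over libraries. The first SD uses single class values within each library, and the second uses library values averaged over classes. Their sizes are therefore not directly comparable.

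**Figure D4:**
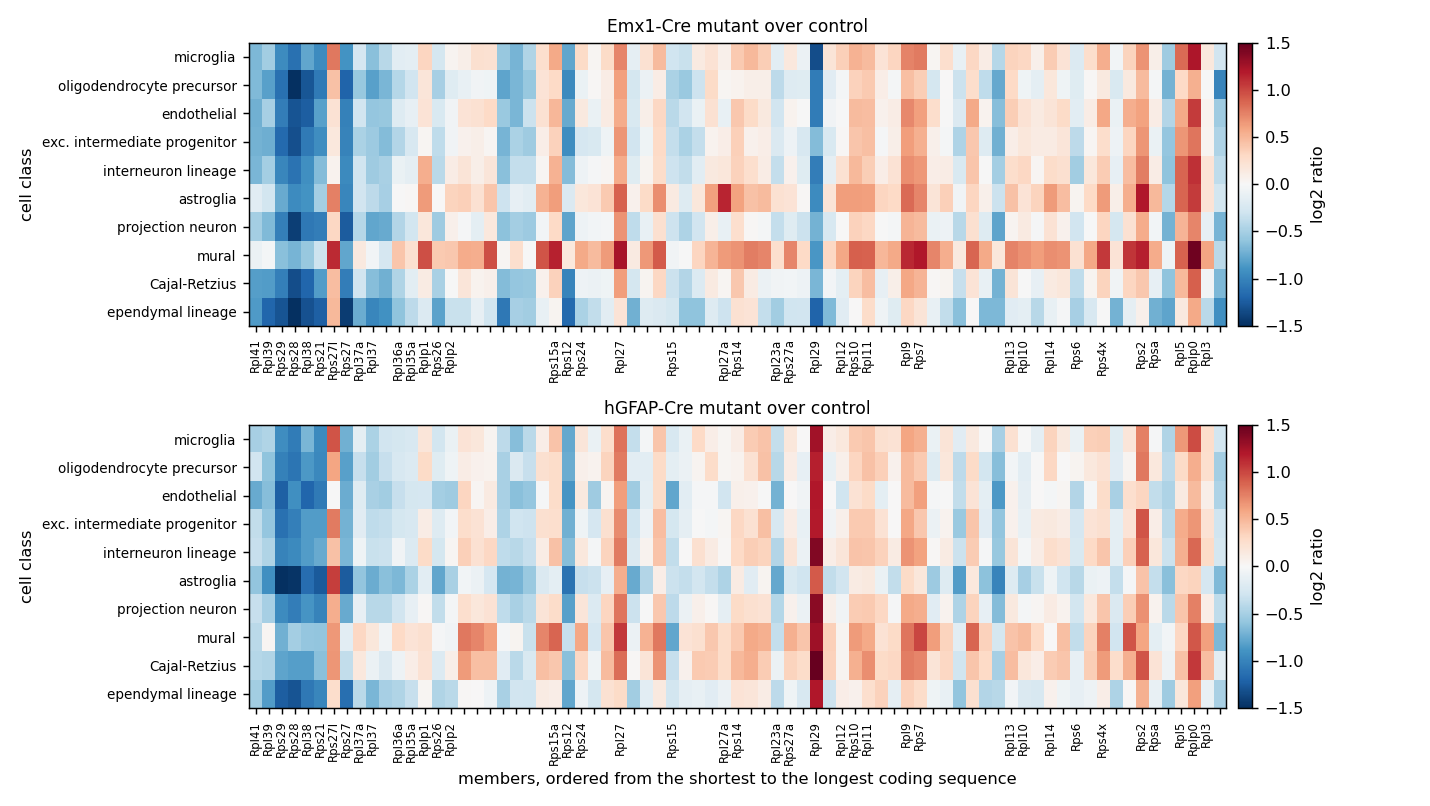
Log2 ratio of 75 of the 77 members (columns, from the shortest to the longest coding sequence, with the members named in the text labelled) to the control in 10 cell classes (rows), for the Emx1-Cre mutant above and the hGFAP-Cre mutant below, with red higher and blue lower in the mutant. Single columns such as Rps28, Rps29, Rpl38 and Rps27 are blue and Rplp0, Rps2 and Rpl27 red across the classes, and Rpl29 is blue above and red below.

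The members with the shortest coding sequences were mostly the ones below the control. Of 11 members with under 300 coding bases, 10 were measured (11 in microglia-like cells of the Emx1-Cre mutant, with Rpl39l), namely Rpl37, Rpl37a, Rpl38, Rpl39, Rpl41, Rps21, Rps27, Rps27l, Rps28 and Rps29. Their median log2 ratio in astroglia-like cells was −0.45 in the Emx1-Cre mutant and −1.03 in the hGFAP-Cre mutant, where the 46 members of 300 to 600 bases had medians of 0.29 and −0.28 and the 21 longer ones 0.32 and −0.29. Over the classes the short members' median ran from −1.20 to −0.20 in the Emx1-Cre mutant and from −1.03 to −0.29 in the hGFAP-Cre mutant. Other genes with under 300 coding bases, 213 of them in astroglia-like cells of each mutant, did not share this: their medians ran from 0.21 to 0.38 and from 0.13 to 0.34 over the classes. Across the 77 members of astroglia-like cells, the log2 ratio was correlated with the log2 of coding length. Pearson r was 0.45 in the Emx1-Cre mutant and 0.40 in the hGFAP-Cre mutant, and −0.07 for the hGFAP-Cre mutant over the Emx1-Cre mutant. Over the classes compared, that last r ran from −0.23 in intermediate progenitor-like to −0.016 in ependymal lineage-like cells. These are descriptions over genes of shared libraries. The grouping by length was chosen after the values of the members had been seen.

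Rpl29, a large subunit protein whose loss is known to reduce body size in mice, set the 2 mutants apart. In astroglia-like cells it stood at 312 CPM in the Emx1-Cre mutant and 1145 CPM in the hGFAP-Cre mutant, against 602 CPM in the control (log2 ratios −0.94 and 0.92). Over all kept cells it stood at 321 and 1396 CPM against 620 CPM. The pattern held in every class: below the control in all 10 classes of the Emx1-Cre mutant (−1.33 to −0.65) and above it in all 11 classes of the hGFAP-Cre mutant (0.92 to 1.53), also relative to the all-gene median. In microglia-like cells the values were 328 and 2004 CPM against 831 CPM. Set directly against each other, the hGFAP-Cre mutant exceeded the Emx1-Cre mutant by log2 ratios of 1.83 to 2.59 over 10 classes, and no other of the 77 members was above 0 in all of them. Its SD over libraries was 1.11 on the log2 scale, the largest of the 77, whose median was 0.167. Of its 3′ end, 38.9% is shared with other annotated genes, which leaves its counting uncertain in part.

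Rps27l was the member that depended most on cell class. It encodes a close homologue of Rps27 and is known in human cells as a direct target of p53. In the Emx1-Cre mutant, the hGFAP-Cre mutant and the control it was highest in ependymal lineage-like cells, at 1590, 1366 and 1135 CPM, and lowest in projection neuron-like cells, at 278, 329 and 224 CPM. In astroglia-like cells it stood at 824 and 1003 CPM against 486 CPM in the control (0.76 and 1.04) while its homologue Rps27 stood at 1244 and 1023 CPM against 2447 CPM. It was above the control in all 10 classes of the Emx1-Cre mutant, from 0.05 to 1.12, and in 10 of the 11 classes of the hGFAP-Cre mutant, endothelial-like cells being at −0.011. Its SD over classes, after the family mean of each class was taken off, was 0.886, against a median of 0.178 over the 77 members, before Rps15 at 0.550 and Rpl38 at 0.465. Of 12 p53 target genes listed beside it, 11 were measured in astroglia-like cells of the hGFAP-Cre mutant and 10 of these were higher (median 1.47), against 11.9% of all genes, with Cdkn1a at 403 against 9.42 CPM in the control and Phlda3 at 246 against 19.7 CPM. In the Emx1-Cre mutant 3 of 9 measured were higher and 1 lower (median 0.28), against 7.23% and 27.9% of all genes, with Phlda3 at 151 CPM.

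**Figure D5:**
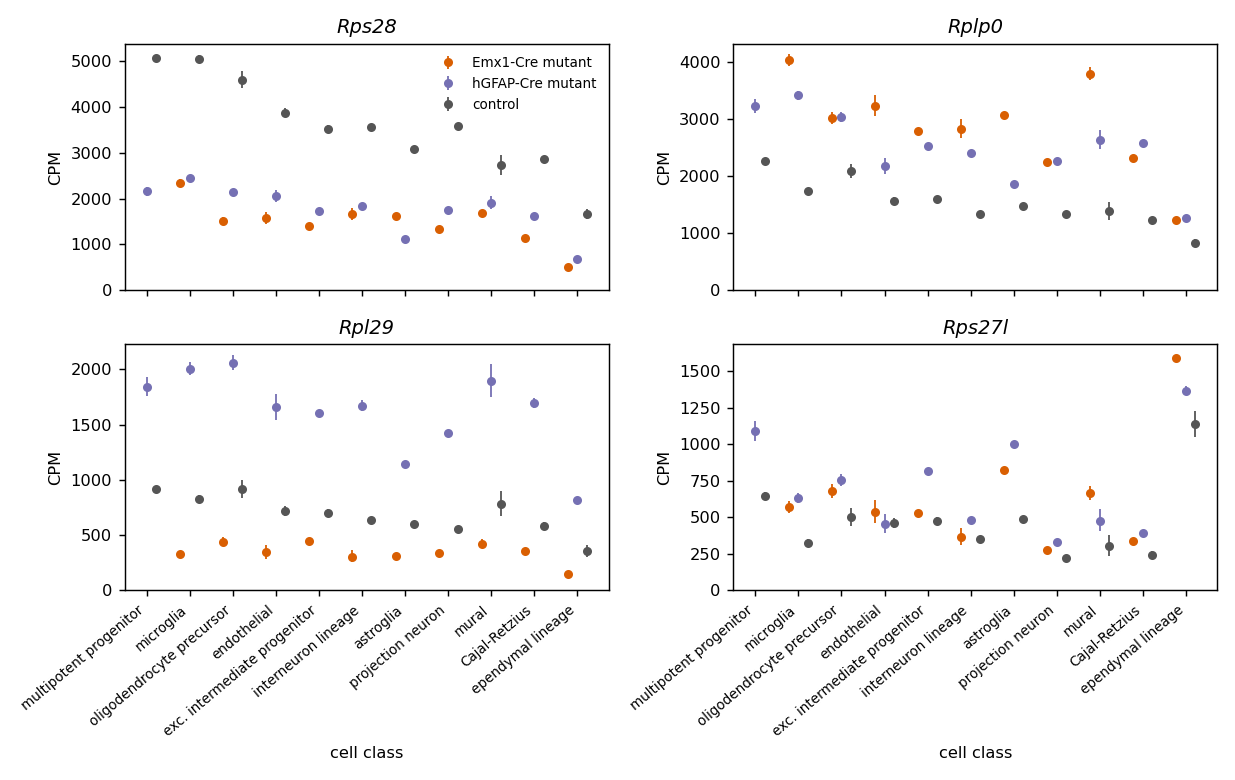
CPM of Rps28, Rplp0, Rpl29 and Rps27l (y axes, from 0) in each cell class of at least 30 cells (x axis) for the 3 libraries, with exact 95% counting intervals. The control is highest for Rps28 and lowest for Rplp0 in each class it shares with both mutants, Rpl29 runs from the Emx1-Cre mutant over the control to the hGFAP-Cre mutant, and Rps27l peaks in ependymal lineage-like cells.

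The 4 X-linked members were all below the control in astroglia-like cells of the hGFAP-Cre mutant, and 2 of them above it in the Emx1-Cre mutant. Most members of the whole family were likewise below the control there in the hGFAP-Cre mutant and above it in the Emx1-Cre mutant, as given above. The control alone had a high Xist level and no Ddx3y, so sex and genotype cannot be told apart here. Rps4x stood at 3658 and 2232 CPM in astroglia-like cells of the Emx1-Cre and the hGFAP-Cre mutant against 2353 CPM in the control, Rpl10 at 948 and 579 CPM against 823 CPM, Rpl36a at 1069 and 670 CPM against 1072 CPM, and Rpl39 at 2515 and 1610 CPM against 3049 CPM. Rpl39l, the paralog of Rpl39, had 117 and 28 counts over all kept cells of the mutants, against 5 in the control. In microglia-like cells it stood at 14.3 CPM (19 counts) in the Emx1-Cre mutant and 4.60 CPM (10 counts) in the hGFAP-Cre mutant. The control had 0 counts there, where 3 counts would be 1.05 CPM.

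The following counts in astroglia-like cells stand beside 7.23% higher and 27.9% lower of all genes in the Emx1-Cre mutant, and 11.9% and 14.4% in the hGFAP-Cre mutant, and several are at or under these shares. Of 7 ribosomal protein genes that the symbol rule leaves out, none was higher and 2 were lower in astroglia-like cells of each mutant. Rps27rt, a copy of Rps27, was one of the lower genes in both, at 28.3 and 19.6 CPM against 53.5 CPM in the control (−0.81 and −1.25). Rps3a1 stood at 3038 and 1990 CPM against 2116 CPM (0.52 and −0.09). Ribosome biogenesis genes gave 3 higher and 4 lower of 24 in the Emx1-Cre mutant (median −0.28), and 0 higher and 6 lower in the hGFAP-Cre mutant (median −0.38), with Nop56 at 46.4 and 36.2 CPM against 90.4 CPM. Translation factors with TOP messages gave 2 higher and 1 lower of 16 (median 0.16), and 1 higher and 3 lower (median −0.23). Eef2, the elongation factor that moves the ribosome along, stood at 213 and 150 CPM against 353 CPM (−0.72 and −1.21), and Btf3 at 1630 and 1662 CPM against 1009 CPM (0.69 and 0.72). Mitochondrial ribosomal protein genes gave 10 higher and 0 lower of 76 (median 0.36), and 11 higher and 1 lower (median 0.24). The G2/M list gave 5 higher and 2 lower of 20 in the Emx1-Cre mutant and 20 lower of 20 in the hGFAP-Cre mutant.

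Astroglia-like cells of the 2 mutants differed from each other by a log2 ratio of the share of −0.58, hGFAP-Cre over Emx1-Cre. Of 77 members 1 was higher, Rpl29, and 34 were lower, against 23.3% and 8.37% of all genes, and 65 were lower relative to the all-gene median of 0.23. In the other 9 classes compared the log2 ratio lay between −0.18 in mural-like and 0.34 in Cajal-Retzius-like cells. For Cajal-Retzius-like cells, early-born reelin-secreting neurons, the share was 12.2% in the Emx1-Cre mutant and 15.4% in the hGFAP-Cre mutant against 13.3% in the control (−0.12 and 0.22), at median depths of 6123, 8936 and 19135 UMIs. The first of these was 0.019 and the second 0.35 relative to the all-gene median.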

How the data were processed

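Each library was deposited as a 10x Genomics matrix of UMI counts per gene and barcode, which the authors produced, per the file headers, with Cell Ranger 5.0.0, on mm10 per the submitters' processing notes. The deposited counts were used without rounding or rescaling. Barcodes with at least 1000 genes and under 10% mitochondrial UMIs that Scrublet did not call doublets were kept (scanpy 1.11.5). Cells were clustered on 2000 variable genes without ribosomal, mitochondrial, biogenesis, sex-linked and Prm1 genes (30 components, 15 neighbours, Leiden resolution 1), and clusters were named from 16 marker lists by the largest share of raised markers (2-fold, in 25% of cells, at least 3). Shares are pooled UMIs with Clopper-Pearson intervals, and levels are CPM with Poisson intervals. The code was tested on simulated counts. Members and gene lists were chosen with earlier results of these data known. Named members are the 4 highest and 4 lowest log2 ratios of each main comparison at 50 CPM or more, the 5 highest and the lowest levels, X-linked members, paralogs with their partners, and up to 4 genes of each related list; others were named after their values had been seen, and some genes that meet the rule are not reported here. Alternatives included other filters, resolutions, naming rules, depth bands, pseudocounts and scaling. Replicates, and so tests between genotypes, were not available among the 3 libraries. CPM does not tell more RNA of one gene from less RNA of the others.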

Additional observations from a re-analysis of the deposited data

Results flagged for a closer look

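Opposite signs in the 2 mutants, against the control library they share, were looked for where both log2 ratios of a class's share reached 0.1 in size, or where a member passed 1.5-fold both ways in astroglia-like cells. Other opposite signs, such as those of Rpl27a in astroglia-like cells (1.14 and −0.46), fell outside these limits. No such difference was tested, since each genotype has 1 library. Within them were 3 results. The first was the share of ribosomal protein UMIs in astroglia-like cells, with log2 ratios of 0.23 in the Emx1-Cre mutant and −0.34 in the hGFAP-Cre mutant. The second was Rpl29 in astroglia-like cells, at −0.94 in the Emx1-Cre mutant and 0.92 in the hGFAP-Cre mutant. The third was the share in Cajal-Retzius-like cells, at −0.12 in the Emx1-Cre mutant and 0.22 in the hGFAP-Cre mutant, of which the first turned to 0.019 relative to the all-gene median.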

How the results depend on the processing

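No paired analysis was possible because each genotype has 1 library, and no replicate was left out. Of 137 recomputed values, 12 changed sign, all in intermediate progenitor-like cells, and 66 others moved by more than counting error or, for counts, by more than 1.5 times. The cause was not tested, apart from what each setting itself changes. The count of lower members in astroglia-like cells of the Emx1-Cre mutant (5) lay between 4 and 7 under every setting tried.

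The Emx1-Cre share in astroglia-like cells (0.23) was 0.28 with at least 2000 genes per cell, 0.2321 under 5% mitochondrial UMIs, 0.2237 with doublets kept, 0.35 at resolution 2, 0.31 with clusters named by mean fold, 0.45 with cells named one by one, 0.2431 without mitochondrial, haemoglobin and Prm1 UMIs, 0.41 in cells of 4000 to 8000 UMIs, 0.3488 as the median of cells and 0.53 scaled by the median ratio. Another 3 settings were chosen after seeing the data: members with little shared 3′ end (0.20), G2/M cells only (0.082) and cells outside G2/M (0.3124). In the same order, the hGFAP-Cre share (−0.34) was −0.2667, −0.38, −0.31, −0.37, −0.29, −0.36, −0.3415, −0.23, −0.43 and −0.2682, and −0.39, −0.11 and −0.3362 for the 3 later settings.

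In intermediate progenitor-like cells the Emx1-Cre share (−0.12) turned positive with doublets kept (0.0013), at resolution 2 (0.018), with cells named one by one (0.0061) and scaled by the median ratio (0.024). It was −0.073 with at least 2000 genes, −0.0052 by mean fold, −0.1073 without mitochondrial, haemoglobin and Prm1 UMIs, −0.098 as the median of cells, −0.16 for members with little shared 3′ end, −0.033 in G2/M cells and −0.32 outside them. The hGFAP-Cre share (−0.013) turned positive with at least 2000 genes (0.015), doublets kept (0.062), resolution 2 (0.092), mean fold (0.074), cells named one by one (0.096), the median of cells (0.029), the median ratio (0.067) and G2/M cells only (0.018). It was −0.0258 under 5% mitochondrial UMIs, −0.0259 in cells of 4000 to 8000 UMIs, −0.053 for members with little shared 3′ end and −0.18 outside G2/M.

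The count of higher members in astroglia-like cells of the Emx1-Cre mutant (19) was 30 with cells named one by one, 29 at 4000 to 8000 UMIs, 37 with the median ratio and 8 in G2/M cells. The counts of higher (2) and lower (22) members in the hGFAP-Cre mutant were 4 and 13 at 4000 to 8000 UMIs and 4 and 9 in G2/M cells.

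In the control, intermediate progenitor-like over projection neuron-like cells (0.16) gave 0.11 with at least 2000 genes, 0.061 with doublets kept, 0.051 at resolution 2, 0.044 by mean fold, 0.070 one by one, 0.15 without mitochondrial, haemoglobin and Prm1 UMIs, 0.12 at 4000 to 8000 UMIs, 0.093 as the median of cells, 0.17 for members with little shared 3′ end, 0.1094 in G2/M cells and 0.35 outside them. G2/M over other astroglia-like cells (0.39) gave 0.3814 with at least 2000 genes, 0.3684 with doublets kept, 0.3788 at resolution 2, 0.28 by mean fold, 0.30 one by one, 0.151 at 4000 to 8000 UMIs and 0.49 as the median of cells. It gave 0.3673 with G2/M called from Mki67 or Top2a, 0.3464 after thinning to 2000 UMIs, 0.3767 with at least 5 genes and 0.3786 for members with little shared 3′ end. At these depths counting error is small beside the differences between settings.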
